A study of Homo sapiens with 8 samples.

Results

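The 10 genes described here are non-coding snoRNA host genes: GAS5, SNHG1, SNHG5, SNHG6, SNHG7, SNHG8, SNHG12, SNHG15, SNHG16 and ZFAS1. They were taken by gene symbol from the deposited count table, which holds 57992 gene rows, and all 10 were found, each in 1 row. RNA was sequenced from KG1A, an immature acute myeloid leukaemia line, and U937, a monoblast-like line that the labels also place among AML lines. The 4 groups, with 2 libraries each, were U937 in 10 mM dG, U937 in PBS, KG1A in 10 mM dG and KG1A in PBS. dG is the usual short form of deoxyguanosine, and PBS is the vehicle. No gene was targeted, all cultures grew in RPMI medium with dialyzed serum, and the length of treatment is not given in the sources used here. Only 1 line of each kind was used, so the lines were compared as these lines and not as subtypes.

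A snoRNA host gene carries small nucleolar RNAs in its introns. The snoRNA is trimmed from the spliced-out intron and guides the chemical modification of ribosomal RNA: box C/D snoRNAs guide 2′-O-methylation and box H/ACA snoRNAs guide pseudouridylation. The exons that remain form the spliced host RNA. In many of these genes the RNA begins with a C followed by further pyrimidines, the 5′ terminal oligopyrimidine start also found in ribosomal protein mRNAs. Many such RNAs are translated over short open reading frames and removed by nonsense-mediated decay, so that their level is known to depend on growth state and on translation. The libraries were made with an mRNA kit, and the values below are those of the host rows.

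The hosts of box C/D snoRNAs were GAS5 (chr1:173863900-173868882, minus strand, GRCh38), SNHG1 (chr11:62851988-62855914, minus), SNHG5 (chr6:85660950-85678736, minus), SNHG6, SNHG16 (chr17:76557766-76565348, plus) and ZFAS1 (chr20:49278178-49295738, plus). The hosts of box H/ACA snoRNAs were SNHG7 (chr9:136721366-136728184, minus), SNHG8 (chr4:118278709-118279823, plus) and SNHG15 (chr7:44983023-44986961, minus). SNHG12 (chr1:28578538-28582983, minus) holds both kinds. GENCODE 29 types SNHG7, SNHG12 and ZFAS1 as antisense, SNHG8 and SNHG15 as lincRNA and the other 5 as processed transcripts, so none is typed as protein-coding. Inside the host spans the table lists 7 snoRNA rows for SNHG1, 5 for SNHG12, 4 for SNHG7, 3 each for SNHG16 and ZFAS1, and 1 each for SNHG5, SNHG6, SNHG8 and SNHG15. For GAS5 no snoRNA row was analysed here.

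Cargo of SNHG8, SNHG12, ZFAS1, SNHG1 and SNHG5 is shown first, because it is the part of the gene that acts on ribosomal RNA: the first 3 rose most in U937, SNHG1 has the most counts, and SNHG5 fell most in both lines. The sequences are from the GENCODE 29 transcripts (GRCh38), written 5′ to 3′ on the gene's own strand. Capitals mark the GATGA of box C and the CTGA of box D, or the ACA box near the 3′ end in SNORA24.
SNORA24, in SNHG8 (chr4:118279190-118279320, plus): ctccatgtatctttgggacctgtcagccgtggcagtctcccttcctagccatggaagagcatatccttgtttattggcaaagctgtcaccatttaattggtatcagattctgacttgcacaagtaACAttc
SNORD99, in SNHG12 (chr1:28578749-28578822, minus): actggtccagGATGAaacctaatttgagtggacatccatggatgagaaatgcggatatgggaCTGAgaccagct
SNORD12B, in ZFAS1 (chr20:49280319-49280409, plus): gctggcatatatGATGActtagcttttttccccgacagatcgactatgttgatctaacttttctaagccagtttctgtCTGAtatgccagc
SNORD12C, in ZFAS1 (chr20:49278940-49279028, plus): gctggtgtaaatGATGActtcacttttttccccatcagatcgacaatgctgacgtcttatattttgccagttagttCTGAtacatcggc
SNORD30, in SNHG1 (chr11:62853663-62853732, minus): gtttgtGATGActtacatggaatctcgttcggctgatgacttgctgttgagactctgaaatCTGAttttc
SNORD50B, in SNHG5 (chr6:85677589-85677658, minus): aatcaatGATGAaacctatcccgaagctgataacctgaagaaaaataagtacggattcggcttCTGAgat

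RefSeq promoter sequences (GRCh38.p14) were matched for 8 of the 10 hosts, all but SNHG6 and SNHG15. The starts of 7 of them are shown because the pyrimidine start is the feature by which this family is known. Each line runs from 40 bases before to 20 bases from the RefSeq start on the gene's strand, and capitals mark TATAA and the run of C and T at the start.
SNHG12 (chr1:28581854-28581913, minus): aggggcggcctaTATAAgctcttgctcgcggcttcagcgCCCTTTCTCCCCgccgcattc
SNHG8 (chr4:118278722-118278781, plus): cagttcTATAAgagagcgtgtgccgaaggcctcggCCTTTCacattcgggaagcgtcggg
ZFAS1 (chr20:49278602-49278661, plus): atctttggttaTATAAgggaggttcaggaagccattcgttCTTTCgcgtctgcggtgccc
SNHG5 (chr6:85678714-85678773, minus): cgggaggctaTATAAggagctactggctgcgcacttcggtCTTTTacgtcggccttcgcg
SNHG7 (chr9:136728165-136728224, minus): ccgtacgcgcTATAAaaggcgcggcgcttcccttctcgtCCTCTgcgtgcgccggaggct
SNHG16 (chr17:76557724-76557783, plus): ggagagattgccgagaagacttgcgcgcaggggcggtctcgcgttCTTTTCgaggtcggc
SNHG1 (chr11:62855866-62855925, minus): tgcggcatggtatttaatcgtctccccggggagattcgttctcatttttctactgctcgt
TATAA, searched on the gene's strand between 40 and 20 bases before the start, was present in 5 of the 8 hosts (SNHG5, SNHG7, SNHG8, SNHG12 and ZFAS1) and in 3.77% of 35116 RefSeq promoters. A C followed by at least 4 C or T, beginning within 5 bases of the start, was present in 6 of the 8, the same 5 and SNHG16, and in 21.1% of all promoters. CACGTG, which reads the same on both strands, lay within the 300-base promoter of 1 of the 8, SNHG7, and of 7.26% of all promoters. The RefSeq and count-table starts lay 1110 bases apart for SNHG12, 464 for ZFAS1, 163 for GAS5 and 53 or fewer for the other 5, so a start given by one annotation can lie inside a transcript of the other. SNHG5, SNHG7, SNHG8, SNHG12 and ZFAS1 share both motifs. In U937, dG lowered SNHG5 and raised the others, as described below, although the SNHG7 call was lost under some alternatives. In KG1A, SNHG5, SNHG7 and SNHG8 fell, and SNHG12 and ZFAS1 did not pass the test. Whether the motifs play a part was not tested.

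Library totals ran from 21053724 to 31135338 counts, and 1 count equalled 0.0321 to 0.0475 CPM, the unit of counts scaled to the size of the library. Every host had at least 456 counts in every library, up to 14099 for SNHG1, and all 10 passed the filter on low counts. CPM below are scaled by TMM, a correction for libraries in which many genes shift together. The TMM factors moved with treatment, at 0.970 to 0.980 in the dG libraries and 1.02 to 1.03 in the PBS libraries. Mitochondrially encoded genes took 7.93% to 8.30% of counts in dG and 9.12% to 9.83% in PBS, and their part in the results was not tested. Replicates correlated at a Pearson r of 0.998 in each group on the log2 scale and differed by more than sampling noise. The labels do not say that they were separate cultures, so each p reflects only how far these libraries spread, which may be technical. CD34, which marks KG1A, stood at 1195 and 1187 CPM in KG1A dG and at 932 and 931 CPM in KG1A PBS. It had at most 16 counts in any U937 library. CD7, another KG1A marker, had 33.0 and 30.5 CPM in KG1A dG and 29.5 and 31.8 CPM in KG1A PBS. In U937 it had at most 1 count. PROM1, also listed as a KG1A marker, had only 14 and 20 counts in KG1A PBS and at most 7 in U937. In KG1A dG it had 110 and 82 counts, a log2 fold change of 2.47 ± 0.27, and its part in the results was not tested. Of the U937 markers, ELANE, LYZ and CD33 were present in U937 and at 23 counts or fewer in KG1A. Within KG1A, CD33 had 23 and 16 counts in dG, against 2 and 1 in PBS (log2 fold change 3.58 ± 0.83). The part of this low-count shift in the results was not tested. MPO, a granule enzyme of myeloid precursors, had only 5 counts or fewer in every library. LYZ, the lysozyme gene of monocytes, had 225 and 219 CPM in U937 dG, against 24.7 and 22.7 CPM in U937 PBS, so a marker of monocytic maturation moved with treatment in that line; its part in the results was not tested. EPCAM and HBB, which mark epithelial and red cells, were at 0 everywhere, whereas the T-cell gene CD3D reached 103 CPM in KG1A.

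In KG1A, dG lowered the host RNAs. Of the 10 hosts, 7 fell, none rose and 3 did not pass the test, whereas 49.1% of the 18314 tested genes were called, 29.6% as higher and 19.6% as lower. The median log2 fold change of the hosts was -0.27, and that of all tested genes was 0.04. The RNA of the 10 hosts together summed to 956 and 960 CPM in KG1A dG, against 1169 and 1204 CPM in KG1A PBS. A call means an adjusted p under 0.05 in edgeR's quasi-likelihood test with Benjamini-Hochberg adjustment over all tested genes, and a ± beside a fold change on the log2 scale gives the standard error. In bulk RNA, fewer cells that express a gene and less RNA per cell cannot be told apart.

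Among the box C/D hosts in KG1A, SNHG5, first known from a lymphoma translocation breakpoint, fell the most of the 10. It stood at 48.0 and 48.2 CPM in KG1A dG, against 76.5 and 81.2 CPM in KG1A PBS. The groups lay well apart, with a log2 fold change of -0.72 ± 0.05 (edgeR adjusted p = 3.86e-15), and its level fell by 39.1%. SNHG16, the host of the SNORD1 family, had 68.3 and 70.0 CPM in KG1A dG and 95.6 and 96.7 CPM in KG1A PBS. Both dG libraries lay below both PBS libraries, by -0.48 ± 0.04 on the log2 scale (edgeR adjusted p = 1.51e-11). GAS5, named for its accumulation in growth-arrested cells and known to bind the glucocorticoid receptor, had 103 and 105 CPM in KG1A dG, against 138 and 136 CPM in KG1A PBS. Its log2 fold change was -0.40 ± 0.04 (edgeR adjusted p = 8.57e-11), so GAS5 was lower with dG in KG1A. Whether growth state played a part was not tested. SNHG1, the host of U22 and the host with the most counts, had 364 and 363 CPM in KG1A dG and 474 and 482 CPM in KG1A PBS. It fell by 0.39 ± 0.03 on the log2 scale (edgeR adjusted p = 1.07e-12).

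The other pair of box C/D hosts did not pass the test in KG1A. SNHG6, the host of SNORD87, had 157 and 161 CPM in KG1A dG and 149 and 159 CPM in KG1A PBS. These ranges overlapped, and the log2 fold change was 0.04, with a 95% interval of -0.04 to 0.12 (edgeR adjusted p = 0.400). ZFAS1, which is transcribed from the start region of ZNFX1 in the opposite direction and hosts the SNORD12 family, had 34.6 and 35.8 CPM in KG1A dG and 33.0 and 32.1 CPM in KG1A PBS. Its dG libraries lay above its PBS libraries, but the log2 fold change of 0.11, with a 95% interval of -0.01 to 0.23, did not pass (edgeR adjusted p = 0.111).

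The 3 box H/ACA hosts all fell in KG1A. SNHG15, the host of SNORA9, had 63.1 and 59.5 CPM in KG1A dG and 72.7 and 75.5 CPM in KG1A PBS, a log2 fold change of -0.27 ± 0.05 (edgeR adjusted p = 9.29e-06). SNHG7, the host of the SNORA17 pair, had 24.2 and 23.3 CPM in KG1A dG and 27.3 and 29.6 CPM in KG1A PBS, a log2 fold change of -0.26 ± 0.07 (edgeR adjusted p = 0.00101). This was the weakest of the 7 calls, and without KG1A PBS replicate 2 it was lost, at -0.20 (adjusted p = 0.0573). SNHG8, the host of SNORA24, had 74.1 and 74.9 CPM in KG1A dG and 83.5 and 91.5 CPM in KG1A PBS, a log2 fold change of -0.24 ± 0.05 (edgeR adjusted p = 5.07e-05). SNHG12, the mixed host, had 20.3 and 19.4 CPM in KG1A dG and 19.8 and 19.2 CPM in KG1A PBS. Its groups overlapped, with a log2 fold change of 0.03 and a 95% interval of -0.12 to 0.18 (edgeR adjusted p = 0.790).

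**Figure D1:**
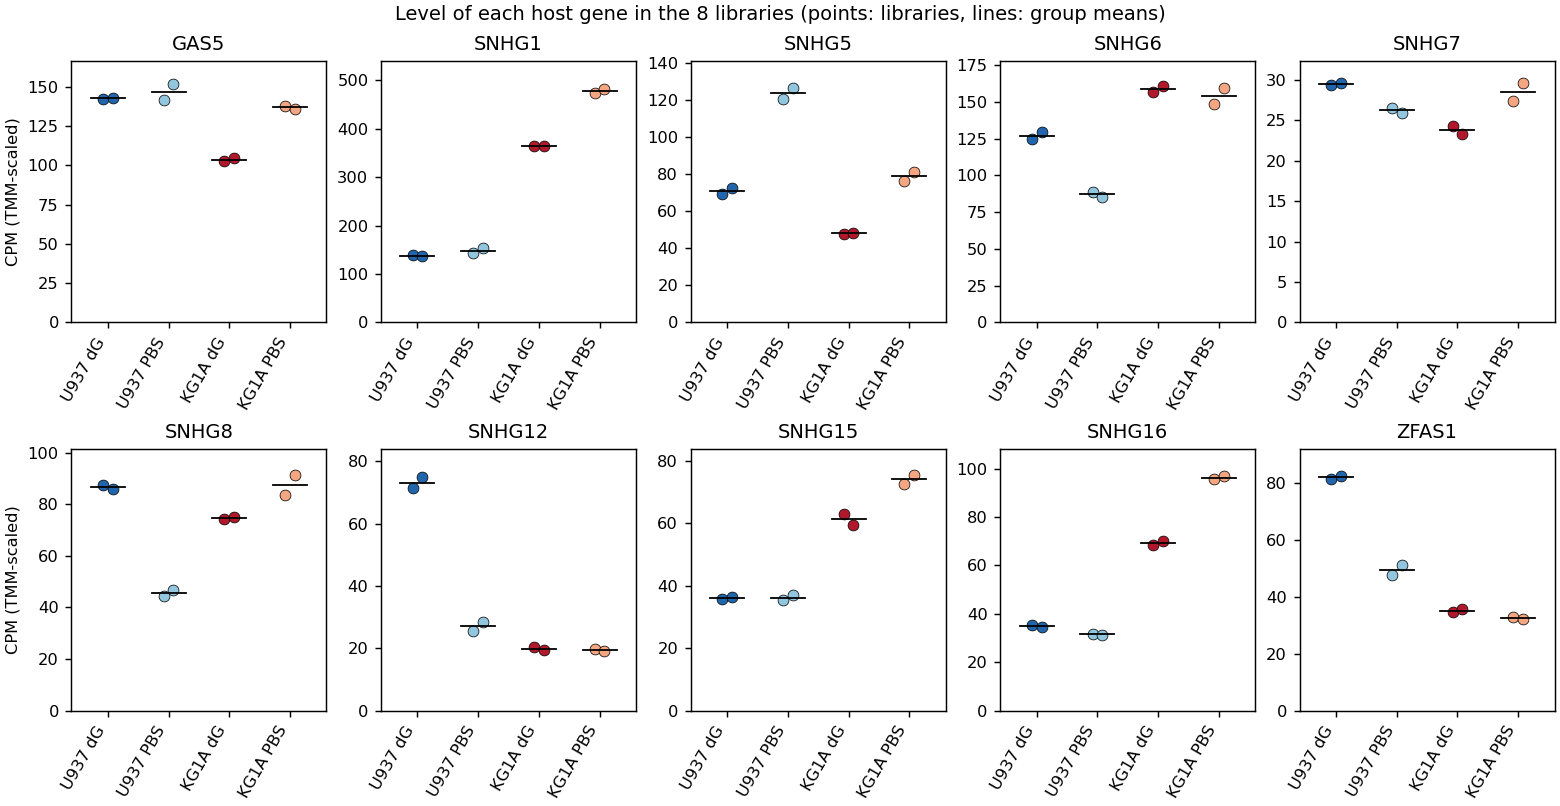
TMM-scaled CPM of each host (y axis, from 0, on its own scale) in the 8 libraries, with U937 dG, U937 PBS, KG1A dG and KG1A PBS from left to right. Points are libraries and lines are group means; SNHG12 stands at 71.4 and 75.0 CPM in U937 dG, above its other 6 libraries, while SNHG5 is lower in dG than in PBS in both lines.

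In U937, dG moved the hosts in both directions, mostly upwards. Here 6 of the 10 rose, 2 fell and 2 did not pass the test, whereas 64.0% of tested genes were called, 32.4% as higher and 31.5% as lower. The median log2 fold change of the hosts was 0.16, and that of all tested genes was 0.00. The 10 hosts together summed to 817 and 825 CPM in U937 dG, against 706 and 738 CPM in U937 PBS.

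The mixed host SNHG12 showed the highest rise of the 10. It had 71.4 and 75.0 CPM in U937 dG, against 25.6 and 28.5 CPM in U937 PBS. Every dG library stood far above every PBS library, with a log2 fold change of 1.44 ± 0.06, which is 2.72-fold (edgeR adjusted p = 3.09e-22). SNHG8, an H/ACA host, followed, at 87.5 and 86.0 CPM in U937 dG and 44.4 and 46.9 CPM in U937 PBS. That is a 1.90-fold level, or a log2 fold change of 0.93 ± 0.05 (edgeR adjusted p = 1.80e-18). ZFAS1 had 81.4 and 82.6 CPM in U937 dG and 47.6 and 51.1 CPM in U937 PBS, a log2 fold change of 0.73 ± 0.05 (edgeR adjusted p = 1.20e-15). SNHG6 had 125 and 129 CPM in U937 dG and 88.8 and 85.6 CPM in U937 PBS, a log2 fold change of 0.54 ± 0.04 (edgeR adjusted p = 7.77e-14). In KG1A, SNHG8 fell and the other 3 of these did not pass the test.

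SNHG5 went the other way. It had 69.5 and 72.7 CPM in U937 dG, against 121 and 127 CPM in U937 PBS. The log2 fold change was -0.80 ± 0.04 (edgeR adjusted p = 5.13e-18), and its level fell by 42.6%.

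The remaining hosts moved little in U937. SNHG7 had 29.4 and 29.5 CPM in U937 dG and 26.5 and 25.9 CPM in U937 PBS, a log2 fold change of 0.17 ± 0.07 (edgeR adjusted p = 0.0253). SNHG16 had 35.2 and 34.7 CPM in U937 dG and 31.4 CPM in both U937 PBS libraries, a log2 fold change of 0.15 ± 0.06 (edgeR adjusted p = 0.0184). Both calls were lost with library size alone as the scaling, where the log2 fold changes were 0.09 for SNHG7 and 0.08 for SNHG16. They were also lost without U937 PBS replicate 1, at 0.18 for SNHG7 and 0.15 for SNHG16, and without U937 PBS replicate 2, at 0.14 for each. SNHG1 had 140 and 136 CPM in U937 dG and 144 and 153 CPM in U937 PBS, a log2 fold change of -0.10 ± 0.04 (edgeR adjusted p = 0.0174). That call was lost under 9 of the 17 alternatives, including DESeq2's size factors, where the log2 fold change was -0.01, and leaving out U937 PBS replicate 2 (-0.07), U937 dG replicate 1 (-0.06) or U937 dG replicate 2 (-0.02). GAS5 had 142 and 143 CPM in U937 dG and 142 and 152 CPM in U937 PBS, with a log2 fold change of -0.04 and a 95% interval of -0.12 to 0.04 (edgeR adjusted p = 0.402). With library size alone, GAS5 fell by 0.11 (adjusted p = 0.0112). SNHG15 had 35.7 and 36.3 CPM in U937 dG, inside its 35.2 and 37.0 CPM in U937 PBS, and its log2 fold change had a 95% interval of -0.12 to 0.12.

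The effect of dG differed between the lines for 9 of the 10 hosts, in each case higher in U937 than in KG1A. Over all tested genes, 44.1% differed, 17.6% in that direction and 26.4% in the opposite one. The difference, the U937 effect minus the KG1A effect, was 1.41 ± 0.09 on the log2 scale for SNHG12 (edgeR adjusted p = 3.47e-15) and 1.16 ± 0.07 for SNHG8 (edgeR adjusted p = 1.09e-16). It was 0.63 ± 0.07 for SNHG16, 0.62 ± 0.08 for ZFAS1, 0.50 ± 0.06 for SNHG6 and 0.43 ± 0.09 for SNHG7. The smallest called differences were 0.36 ± 0.06 for GAS5, 0.29 ± 0.05 for SNHG1 and 0.27 ± 0.08 for SNHG15 (edgeR adjusted p = 0.00306). SNHG5 was the exception, with a difference of -0.09 and a 95% interval of -0.22 to 0.05 (edgeR adjusted p = 0.321). The median difference was 0.46 for the hosts and -0.10 for all tested genes. It held in all 16 alternatives run on this comparison: all of them called the difference for 9 hosts, higher in U937. Both lines' effects share no library, since each has its own PBS control.

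**Figure D2:**
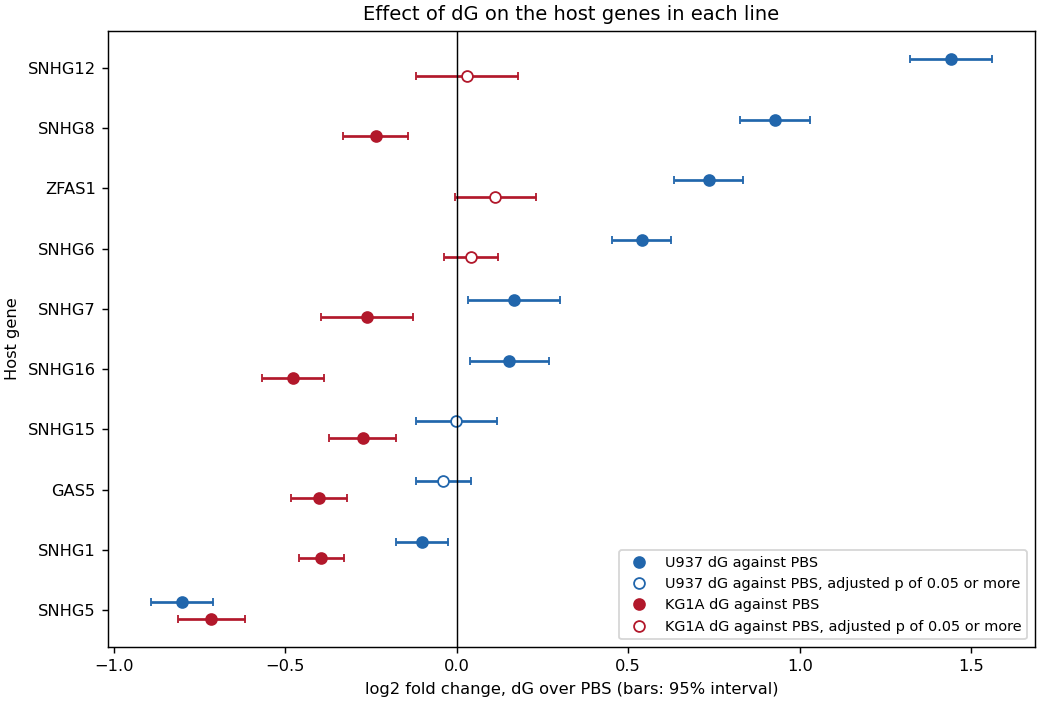
Log2 fold change of dG over PBS (x axis) for each host, with U937 above and KG1A below in each row, and bars for the 95% interval; open points did not pass the adjusted p threshold of 0.05. The U937 point lies to the right of the KG1A point for 9 hosts, and for SNHG5 the points, at -0.80 in U937 and -0.72 in KG1A, have overlapping intervals.

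Without dG, the lines already differed in most hosts. Of the 10, 4 were higher and 5 lower in U937 PBS than in KG1A PBS, whereas 82.3% of tested genes were called, 41.4% as higher and 40.8% as lower, so the count of changed hosts is close to the background. SNHG1 showed the widest gap, with 144 and 153 CPM in U937 PBS, against 474 and 482 CPM in KG1A PBS, a log2 fold change of -1.69 ± 0.03 (edgeR adjusted p = 2.91e-32). SNHG16 was also lower in U937, by -1.61 ± 0.05 (edgeR adjusted p = 5.22e-27), as were SNHG15 by -1.04 ± 0.05, SNHG8 by -0.94 ± 0.05 and SNHG6 by -0.82 ± 0.04. Hosts higher in U937 PBS were SNHG5, by 0.65 ± 0.04, ZFAS1, by 0.60 ± 0.06, and SNHG12, by 0.47 ± 0.07 (edgeR adjusted p = 1.33e-07). GAS5 was higher by only 0.10 ± 0.04 (edgeR adjusted p = 0.0191), a call that was lost under 8 of 16 alternatives, among them leaving out KG1A PBS replicate 1 (0.10), KG1A PBS replicate 2 (0.09) or U937 PBS replicate 2 (0.08). SNHG7 did not pass, at -0.12 with a 95% interval of -0.25 to 0.01 (edgeR adjusted p = 0.0778), but was called under 5 of the 16 alternatives.

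Levels of different hosts were compared per exon length, in the authors' RPKM, which divides counts by exon length in kilobases and by scaled library size. In U937 PBS, SNHG6 was highest at 68.9 ± 2.48 RPKM (SD, n = 2 here and for the RPKM that follow), then SNHG8 at 48.7 ± 1.39, SNHG5 at 43.7 ± 1.03 and GAS5 at 39.8 ± 1.49 RPKM. GAS5 and the next, SNHG1 at 38.9 ± 1.35 RPKM, overlapped. ZFAS1 stood at 21.7 RPKM, and SNHG15, SNHG12, SNHG7 and SNHG16 followed at 9.75, 7.88, 5.94 and 5.77 RPKM. In KG1A PBS, SNHG1 at 129 ± 1.96 and SNHG6 at 126 ± 6.39 RPKM headed the order and overlapped each other. SNHG8 at 96.4, GAS5 at 38.3, SNHG5 at 28.7, SNHG15 at 20.6, SNHG16 at 18.2 and ZFAS1 at 14.8 RPKM came next, and SNHG7 at 6.66 and SNHG12 at 5.86 RPKM were lowest. With dG, SNHG12 reached 22.3 ± 0.540 RPKM in U937, and SNHG5 at 26.1 RPKM fell below ZFAS1 at 37.6 RPKM. In KG1A dG, SNHG6 at 123 RPKM stood above SNHG1 at 94.0 RPKM, and SNHG5 and SNHG15 overlapped at 16.7 and 16.3 RPKM. The exon length in the file covers 95.6% of the gene span for SNHG1 but 12.8% for ZFAS1. The effect of this exon definition on RPKM was not tested.

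**Figure D3:**
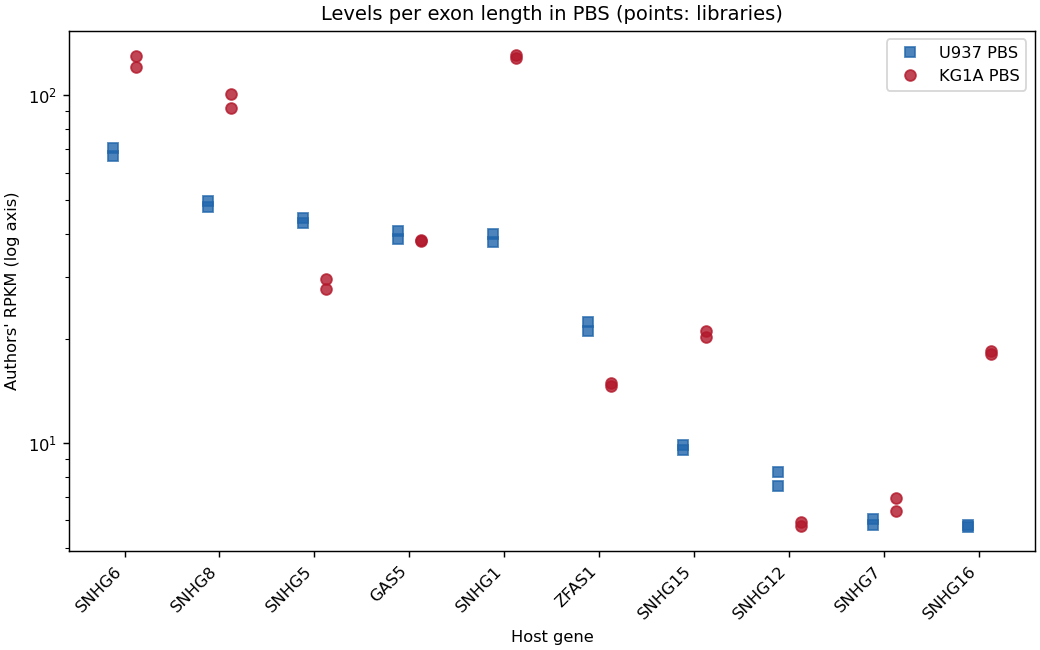
The authors' RPKM of each host (y axis, log scale) in the PBS libraries, with U937 (squares) left of KG1A (circles) for each gene, ordered by the U937 mean. SNHG1 and SNHG16 stand about as far apart between the lines as any host, at 38.9 against 129 RPKM and at 5.77 against 18.2 RPKM.

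The snoRNA rows inside the hosts held few counts. snoRNAs carry no poly(A) tail and the libraries were made with an mRNA kit, and the rows lie within the host spans, where the assignment of reads is not given; the part of either in these low counts was not tested. Counts were found in 1 row of 7 in SNHG1, 1 of 5 in SNHG12, 1 of 3 in SNHG16 and 2 of 3 in ZFAS1. The rows in SNHG5, SNHG6, SNHG7, SNHG8 and SNHG15 were at 0 in all 8 libraries, which allows up to 3 counts in each. SNORD30, in SNHG1, had 7 and 6 counts in U937 dG, against 9 and 11 in U937 PBS, and 28 and 20 counts in KG1A dG, against 26 and 39 in KG1A PBS. SNORD99, in SNHG12, had 13 and 21 counts in U937 dG, against 7 and 4 in U937 PBS, and 4 and 7 counts in KG1A dG, against 5 and 4 in KG1A PBS. SNORD12B, in ZFAS1, had 20 and 23 counts in U937 dG, against 18 and 9 in U937 PBS, and 16 and 12 counts in KG1A dG, against 21 and 25 in KG1A PBS. SNORD12C, also in ZFAS1, had 6 and 1 counts in U937 dG, against 8 and 6 in U937 PBS, and 2 and 1 counts in KG1A dG, against 4 and 6 in KG1A PBS. SNORD1B, in SNHG16, had 7 counts over all 8 libraries. SNORD99 was highest in the libraries in which its host was highest. Reads of host RNA and of snoRNA cannot be told apart in these rows, and the counts were not tested.

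Several hosts share DNA with a gene on the other strand, and whether strand was used in counting is not given in the sources used here, so reads in the shared stretch are uncertain. SLC3A2, which encodes the heavy chain of amino acid transporters, starts 188 bases from SNHG1 and runs the other way. It rose with dG in U937, by 0.53 ± 0.04 (edgeR adjusted p = 1.78e-13), and in KG1A, by 0.17 ± 0.04. SNHG1 fell in KG1A, and its small drop in U937 was lost under 9 of the 17 alternatives, as given above. In PBS SLC3A2 was lower in U937 than in KG1A by -1.15 ± 0.04, the same direction as SNHG1. ZBTB37, which overlaps GAS5 over 801 bases, rose in KG1A, by 0.41 ± 0.08, where GAS5 fell, and did not pass the test in U937 (-0.03). The low-count GAS5-AS1 had 29 and 17 counts in KG1A dG and 12 and 9 counts in KG1A PBS (log2 fold change 1.10 ± 0.41, edgeR adjusted p = 0.0175). ZNFX1, a helicase gene that overlaps ZFAS1 over 249 bases, rose by 0.29 ± 0.06 in U937 and by 0.24 ± 0.05 in KG1A. FAM69B overlaps SNHG7 over 2685 bases, the longest shared stretch with a tested neighbour. Its log2 fold change was -0.49 ± 0.16 in U937, where that of SNHG7 was 0.17, and 0.89 ± 0.13 in KG1A, where that of SNHG7 was -0.26; the SNHG7 calls were lost under the settings and left-out libraries given above. TRNAU1AP, which acts in selenocysteine tRNA use and shares 8 bases with SNHG12, fell by 0.25 ± 0.07 in U937, where SNHG12 rose, and rose by 0.28 ± 0.08 in KG1A. RP11-666A8.8, whose start lies 83 bases from that of SNHG16, did not pass in either line, and MCMDC2 had too few counts to be tested. The ZNFX1-AS1_1, ZNFX1-AS1_2 and ZNFX1-AS1_3 rows inside ZFAS1 were at 0.

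Other hosts of snoRNAs and the proteins that bind the cargo were counted from lists chosen with earlier results of these data known. Of 14 other non-coding hosts, all but SNHG18, which was at 0, were tested. In U937, 7 of the 13 fell and none rose, with a median of -0.56, beside 31.5% of all tested genes lower and 32.4% higher. With DESeq2's size factors, with RPKM at either pseudocount under the filter, and without U937 dG replicate 2, 1 was called higher. In KG1A 4 fell and 1 rose, with a median of -0.47, beside 19.6% of all tested genes lower and 29.6% higher. None rose there with DESeq2, with RPKM at pseudocount 0.1 or without a filter, or without KG1A PBS replicate 2. DANCR, known for restraining differentiation of epidermal progenitors, had 14.4 and 14.5 CPM in U937 dG, against 27.9 and 29.3 CPM in U937 PBS (log2 fold change -0.99 ± 0.07). In KG1A it had 83.8 and 79.6 CPM in dG, against 171 and 168 CPM in PBS (-1.05 ± 0.04). SNHG4 fell by 2.30 ± 0.23 and SNHG21, a low-count row, by 0.93 ± 0.37 in U937. SNHG3 fell by 0.60 ± 0.05 in U937 and by 0.83 ± 0.05 in KG1A, and SNHG10 fell by 0.67 ± 0.14 in U937 and by 0.53 ± 0.10 in KG1A. The 1 host that rose in KG1A, SNHG20, named after its value was seen, had 9.28 and 9.32 CPM in KG1A dG, against 7.37 and 6.57 CPM in KG1A PBS (0.42 ± 0.12), a call lost with DESeq2 and without KG1A PBS replicate 2. For the difference between the lines, 9 of the 13 were not called, beside 17.6% of all tested genes higher and 26.4% lower in U937. The difference was called higher in U937 for SNHG3 and SNHG17 (0.23 and 0.31) and lower for SNHG4 and SNHG20 (-2.12 and -0.67). These were also named after their values were seen. Only 1 of the lower calls was made without the filter, with DESeq2, with RPKM at pseudocount 0.1, and without KG1A PBS replicate 2, U937 PBS replicate 1, U937 dG replicate 1 or U937 dG replicate 2. Of the higher calls, 0 were made without U937 PBS replicate 1, and 1 without KG1A PBS replicate 2 or KG1A dG replicate 2.

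Of 37 protein-coding hosts, 27 fell and 8 rose in U937, with a median of -0.32 (all tested genes: 31.5% lower, 32.4% higher, median 0.00). In KG1A 19 fell and 7 rose, with a median of -0.10 (all tested genes: 19.6% lower, 29.6% higher, median 0.04), and only 2 or 3 rose with RPKM. NCL, which encodes nucleolin, a protein of ribosome assembly, had 585 and 573 CPM in U937 dG, against 1535 and 1488 CPM in U937 PBS (-1.38 ± 0.03), and it fell by 0.57 ± 0.03 in KG1A. NOP56, a core protein of box C/D particles that itself hosts snoRNAs, fell by 1.32 ± 0.04 in U937. HSPA9, a mitochondrial chaperone, fell by 0.53 ± 0.03 in KG1A. TPT1, a growth-related gene with a pyrimidine start, rose by 0.88 ± 0.03 in KG1A. RPL17 rose by 1.27 ± 0.11 in U937, but its row held only 114 to 339 counts in any library and overlaps a readthrough gene, so that value is uncertain. The rows of EIF4A1 and RPL21, named here for their low counts, held 77 to 213 and 103 to 262 counts. EIF4A1 was called higher in U937, and RPL17 and RPL21 lower in KG1A, so these calls within the list counts are uncertain too.

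The RNAs of the proteins that make up and assemble snoRNA particles mostly fell in both lines. In U937, 16 of 17 fell and 1 rose, with a median of -1.04, where 31.5% of all tested genes fell and 32.4% rose. In KG1A 14 fell and none rose, with a median of -0.41, where 19.6% of all tested genes fell and 29.6% rose. FBL, the methyltransferase of box C/D particles, had 74.3 and 76.1 CPM in U937 dG, against 243 and 242 CPM in U937 PBS, a log2 fold change of -1.69 ± 0.04 (edgeR adjusted p = 8.93e-30). In KG1A it fell by 0.62 ± 0.04. NHP2, a core protein of H/ACA particles, fell by 1.36 ± 0.07 in U937 and by 0.70 ± 0.05 in KG1A. RUVBL1, an ATPase of particle assembly, fell by 1.50 ± 0.05 in U937, and GAR1, also of H/ACA particles, by 0.63 ± 0.06 in KG1A. NOP56 and DKC1 are in both this list and the protein-coding hosts. The difference between the lines was lower in U937 for 12 of these 17, beside 26.4% of all tested genes lower and 17.6% higher in this comparison. It was higher for NOP10 (0.48 ± 0.06), which also was the 1 that rose in U937 and was named after its value was seen. In U937 the RNAs of the particle proteins fell further while 6 of the 10 host RNAs rose.

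Factors of nonsense-mediated decay did not move one way. In U937, 5 of 16 rose and 6 fell, with a median of -0.00, and only 3 fell with DESeq2, with RPKM or without U937 dG replicate 1, and only 3 rose with library size alone. In KG1A 3 rose and 7 fell, with a median of -0.05, and only 1 rose with RPKM. All tested genes split into 31.5% lower and 32.4% higher in U937, and into 19.6% lower and 29.6% higher in KG1A. MAGOH and RBM8A, core proteins of the exon junction complex, fell by 1.11 ± 0.07 and 0.74 ± 0.05 in U937, where SMG5 rose by 0.42 ± 0.04. In KG1A, NBAS rose by 0.87 ± 0.04, while UPF1, the central helicase of the pathway, fell by 0.41 ± 0.04 and MAGOH by 0.38 ± 0.06.

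**Figure D4:**
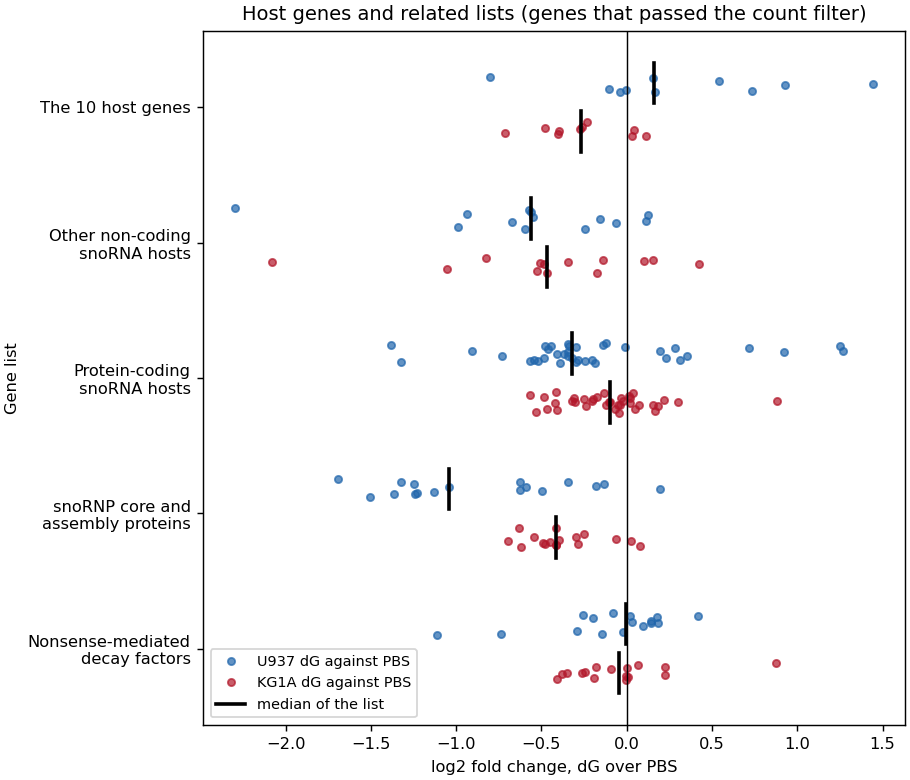
Log2 fold change of dG over PBS (x axis) for the tested genes of the 10 hosts and of the 4 related lists, with U937 above KG1A in each row; points are genes and black lines are list medians. The median of the 10 hosts lies at 0.16 in U937 and at -0.27 in KG1A, while that of the snoRNP list lies at -1.04 in U937 and at -0.41 in KG1A.

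The 10 hosts did not share 1 profile. Across the 8 libraries, which are 4 groups of 2 and so mostly describe group means, log2 CPM of SNHG1 and SNHG15 had a Pearson r of 0.997, the highest of 45 pairs, and SNHG1 and ZFAS1 had -0.885, the lowest. Among 5899 other genes whose log2 CPM averaged 5 or more, the ones most like the mean standardized profile of the hosts were HYOU1 (r = 0.973), a chaperone of the endoplasmic reticulum, CNBP (0.970), a nucleic-acid binding protein, TMEM33 (0.943), SPTY2D1 (0.923) and CLTC (0.916), the clathrin heavy chain. HYOU1 had 285 and 283 CPM in U937 dG, against 202 and 199 CPM in U937 PBS, and 203 and 200 CPM in KG1A dG, against 305 and 298 CPM in KG1A PBS. All 5 were picked for this likeness, so their changes are a description only.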

How the data were processed

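RNA from 8 libraries, 2 in each group, was analysed, with line, treatment and replicate number from the sample titles. The authors deposited whole-number read counts per gene and RPKM for the same libraries; bcl2fastq 2.18.0.12, TopHat2, HTSeq 0.11.2 and the build GRCh38 are named, without roles or settings, per the submitters' processing notes. Recomputing the authors' RPKM showed counts per kilobase of exon length and per TMM-scaled library. Whether strand was used, and how reads of overlapping genes were assigned, is not given in the sources used here.

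The test was the two-sided quasi-likelihood F test of edgeR 4.0.16 under R 4.3.3, on the counts, after filterByExpr, which left 18314 genes, with TMM and 1 mean per line and treatment for all 8 libraries (4 residual and 31.0 prior degrees of freedom, biological coefficient of variation 2.51%). Contrasts were dG against PBS in each line, the difference between these effects, and U937 against KG1A in PBS. P-values were adjusted by Benjamini-Hochberg over all tested genes, with a threshold of 0.05. The script was tested on simulated data. A count of 0 allows up to 3 counts; this limit covers counting error only. The members and lists were chosen with earlier results of these data known. All 10 members are named, and of each list the up to 3 called genes with the largest absolute change per line, the neighbours except 1 that is not reported here, and the 5 genes of most similar pattern. Alternatives were DESeq2's size factors, library size alone, no filter, DESeq2 1.42.0, each line alone, the replicate block, limma 3.58.1 on log2(RPKM + 1) or log2(RPKM + 0.1) with a filter of 0.1 RPKM in 2 libraries, or log2(RPKM + 1) with none, and leaving out each library. snoRNA sequences came from the GENCODE 29 transcripts and promoters from RefSeq (GRCh38.p14).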

Additional observations from a re-analysis of the deposited data

Results flagged for a closer look

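The effect of dG differed between the lines, by the test of the difference itself, for 9 of the 10 hosts, and each is given as the U937 effect minus the KG1A effect on the log2 scale. The difference was 1.41 for SNHG12 and 1.16 for SNHG8, the hosts that rose most in U937. It was 0.63 for SNHG16, 0.62 for ZFAS1, 0.50 for SNHG6 and 0.43 for SNHG7 (edgeR adjusted p = 0.000207). For GAS5 it was 0.36, for SNHG1 0.29 and for SNHG15 0.27, and these hosts fell in KG1A while their U937 effects lay between -0.10 and -0.00. Over all tested genes the median difference was -0.10. It was -0.00 with DESeq2's size factors and 0.03 without the filter, so that the gap of the hosts to all genes was about the same under these settings: their own median was 0.56 with DESeq2's size factors and 0.59 without the filter, against 0.46 in the values reported. With 2 libraries in a group, no single library could be set apart from its group.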

How the results depend on the processing

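Members called lower in U937 were 2 in the values reported, and 1 with DESeq2's size factors, without the filter, with DESeq2 and with RPKM at pseudocount 1, at pseudocount 0.1 and at pseudocount 1 without a filter; leaving out 1 library gave 1 to 2. The call that was lost is that of SNHG1. Library size alone gave 4 higher and 3 lower in U937. Leaving out 1 library gave 4 to 6 hosts higher in U937 and 6 to 7 lower in KG1A. Hosts lower in KG1A were 7, and hosts with a higher effect in U937 were 9, under every alternative that kept all libraries. Log2 fold changes that did not pass the test changed sign without being called. For SNHG6 in KG1A (0.04) the value was -0.023 with library size alone, -0.025 without the filter, -0.018 with each line alone, and -0.022 and -0.023 with RPKM at pseudocounts 1 and 0.1. For SNHG12 in KG1A (0.03) it was -0.035, -0.038, -0.031, -0.035 and -0.041 under these settings. For GAS5 in U937 (-0.04) it was 0.052 with DESeq2's size factors, 0.051 with DESeq2, 0.022 without the filter, and 0.020 and 0.021 with RPKM. For SNHG15 in U937 (-0.00) it was 0.089, 0.088, 0.059, 0.052 and 0.057 under these settings. For the SNHG5 difference between the lines (-0.09) it was 0.015, 0.014, 0.042, 0.026 and 0.037. RPKM at pseudocount 1 gave the same 5 values without its filter. Leaving out 1 library gave -0.024 to 0.094 for SNHG6, -0.037 to 0.061 for SNHG12, -0.092 to 0.023 for GAS5, -0.042 to 0.070 for SNHG15 and -0.136 to 0.073 for SNHG5. The cause was not tested. Where leaving out a library left 1 sample in a group, that sample was assumed to vary like the other groups. Over all genes, the difference between the lines was called higher for 3230 and lower for 4841 genes, against 5099 higher with RPKM at pseudocount 1, 4950 without its filter and 3119 lower with DESeq2. Of the 37 protein-coding hosts, 23 had a lower and 8 a higher effect in U937, beside 26.4% of all tested genes lower and 17.6% higher. The count of lower effects was 14 without the filter or with DESeq2 and 12 with RPKM. It was also smaller without U937 dG replicate 1 or U937 dG replicate 2. In KG1A 7 of these hosts rose, but 2 or 3 with RPKM, beside 29.6% of all tested genes higher. The replicate block gave 7 hosts lower in KG1A, 6 higher and 2 lower in U937, 9 with a higher effect in U937, and 4 higher and 5 lower in U937 PBS, and it moved no count of member calls. Deviations of same-numbered libraries correlated between -0.178 and 0.0926 over 9963 genes. The labels do not say what a shared replicate number marks, and these correlations cannot settle it. Hosts had 456 or more counts in every library, and the snoRNA rows inside them had at most 39.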
